A study of Mus musculus with 8 samples.

Results

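The 9 genes described here encode proteins that the liver secretes into blood plasma: Alb, Afp, Apoa1, Apoa2, Apob, Fgb, Fga, Ahsg and Serpina1a. They were chosen by name, after Alb counts had been seen in sorted choroid plexus cells, so every contrast of sorted cells with whole tissue is given for them as a description with no test. All 9 had a row in the count table of 23284 genes, and all 9 passed the filter on low counts that left 15698 genes for testing. The question was whether Alb in the sorted cells travels with the other liver genes.

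RNA-seq was made from mouse choroid plexus, the secretory tissue of the brain ventricles that makes cerebrospinal fluid, at embryonic day E18.5. The 4 groups were hindbrain sorted cells, telencephalic sorted cells, hindbrain whole tissue and telencephalic whole tissue, with 2 libraries each. Hindbrain plexus came from the fourth ventricle and telencephalic plexus from the lateral ventricles. The whole plexus came from CD1 embryos. The sorted cells came from ICR (CD1) embryos and were Ttr::RFP+ epithelial cells purified by flow cytometry, so strain label, reporter and sorting all differ together between the preparations, and the sort selects cells in which a red reporter is driven by transthyretin, a gene of the choroid epithelium that the liver also expresses. Per the series' design text both regions were taken from the same brains, so that replicate 1 or 2 of a preparation is the same brain in both regions. Whether a sample pools several embryos is not stated.

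Plasma proteins are made mainly by hepatocytes, and before birth also by the visceral yolk sac. Albumin binds small molecules and holds fluid in the vessels, and alpha-fetoprotein is its fetal relative. The apolipoproteins carry lipid: apolipoprotein A-I and A-II are the main proteins of high-density lipoprotein, and apolipoprotein B forms the particles that leave liver, gut and yolk sac. Fibrinogen, the clotting protein, is built from the products of Fga, Fgb and Fgg. Fetuin-A, the product of Ahsg, limits mineral deposition, and Serpina1a encodes one of the alpha-1-antitrypsins, which inhibit neutrophil elastase. In embryos many plasma proteins are found in cerebrospinal fluid, and the choroid plexus passes some of them across its epithelium.

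Promoters of 4 of the genes are shown as examples with and without the motif marked: Alb, Afp and Fga hold it and Apob does not. The windows run from 250 bases before to 50 bases after the gene start, from RefSeq on build GRCm38.p6, and all 9 genes had one. Capitals mark GTTAAT on either strand, a motif known from promoters of liver genes. All 4 genes lie on the plus strand, at chr5:90460620-90460919 for Alb, chr5:90490464-90490763 for Afp, chr3:83025903-83026202 for Fga and chr12:7977427-7977726 for Apob.
Alb: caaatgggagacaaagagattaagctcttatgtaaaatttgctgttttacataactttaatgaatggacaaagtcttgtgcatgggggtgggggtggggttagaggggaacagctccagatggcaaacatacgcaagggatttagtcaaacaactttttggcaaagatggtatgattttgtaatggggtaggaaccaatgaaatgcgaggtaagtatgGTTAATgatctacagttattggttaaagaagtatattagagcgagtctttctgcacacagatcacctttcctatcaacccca
Afp: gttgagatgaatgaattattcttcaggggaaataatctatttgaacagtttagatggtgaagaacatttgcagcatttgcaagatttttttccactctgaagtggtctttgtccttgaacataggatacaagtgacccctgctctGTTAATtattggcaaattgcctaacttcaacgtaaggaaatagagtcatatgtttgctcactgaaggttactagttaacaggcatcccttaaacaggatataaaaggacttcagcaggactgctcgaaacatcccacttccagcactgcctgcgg
Fga: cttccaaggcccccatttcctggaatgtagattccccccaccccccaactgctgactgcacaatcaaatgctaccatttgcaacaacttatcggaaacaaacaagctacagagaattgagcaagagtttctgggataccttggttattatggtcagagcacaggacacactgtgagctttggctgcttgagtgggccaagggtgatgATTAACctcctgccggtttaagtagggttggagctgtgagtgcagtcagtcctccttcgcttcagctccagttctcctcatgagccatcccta
Apob: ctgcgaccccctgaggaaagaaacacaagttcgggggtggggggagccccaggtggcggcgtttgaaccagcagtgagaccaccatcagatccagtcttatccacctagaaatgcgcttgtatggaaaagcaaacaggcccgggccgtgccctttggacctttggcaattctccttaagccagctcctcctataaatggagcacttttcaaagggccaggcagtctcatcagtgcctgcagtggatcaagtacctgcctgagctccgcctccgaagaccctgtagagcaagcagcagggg
The match starts 32 bases before the gene start in Alb, 105 in Afp and 43 in Fga, and the Apob window holds none. GTTAAT stood in 5 of the 9 promoters (Alb, Afp, Fgb, Fga and Serpina1a) and in 7.2% of 27025 promoters of the same length. It did not split the 9 by their likeness to Alb across the 8 libraries: Ahsg, 1st in likeness, holds none, and Serpina1a, 90th, holds one. The longer GTTAATNAT, which contains it, stood in 3 of the 9 (Alb, Afp and Fga) and in 0.836% of all. TATAAA was in 3 of the 9 (Afp, Apoa2 and Apob) against 14.2% of all promoters, CCAAT in 5 against 37.9%, and TGTTTA, a forkhead core, in 3 against 13.4%. TTGCGCAA was in 0 of the 9 and 0.185% of all, TGACCTTTG in 0 and 0.466%, and CAAAGTCCA in 0 and 0.477%. These are matches of letters on both strands, not binding sites. Some of the genes are also neighbours: Alb lies beside Afp, Fga between Fgg and Fgb, Ahsg beside Fetub and Apoa1 beside Apoc3.

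Sequencing depth was 8849053 to 31613434 counts per library, smallest in telencephalic whole tissue replicate 2. Levels are CPM, counts scaled by library size and TMM factors. Because the cDNA was amplified and reads hold no molecular identifiers, intervals and floors cover counting error only. The sorted libraries held 108 to 133 summed CPM of 9 endothelial genes, against 592 to 649 in whole tissue. All 9 were called lower in sorted cells of both regions, where 22.4% (telencephalic) and 22.1% (hindbrain) of all genes were called. The 16 genes of choroid epithelial identity summed to 175400 to 295300 CPM in sorted cells and 155700 to 198500 CPM in whole tissue, most of it Ttr.

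Alb had 561 and 980 counts in hindbrain sorted cells and 937 and 621 counts in telencephalic sorted cells, against 9 and 427 counts in hindbrain whole tissue and 2 and 1 counts in telencephalic whole tissue. As levels these were 20.4 and 36.0 CPM in hindbrain sorted cells and 35.4 and 38.5 CPM in telencephalic sorted cells, against 0.363 and 20.2 CPM in hindbrain whole tissue and 0.122 and 0.105 CPM in telencephalic whole tissue. All 4 sorted libraries were high, the telencephalic whole libraries were near 0, and the 2 hindbrain whole libraries fell on opposite sides. Afp followed the same split, with 174 and 179 counts in hindbrain sorted cells and 265 and 106 counts in telencephalic sorted cells, against 4 and 222 counts in hindbrain whole tissue and 8 and 0 counts in telencephalic whole tissue. Hindbrain whole tissue replicate 2, at 10.5 CPM of Afp, stood above every sorted library, the highest of which had 10.02 CPM.

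**Figure D1:**
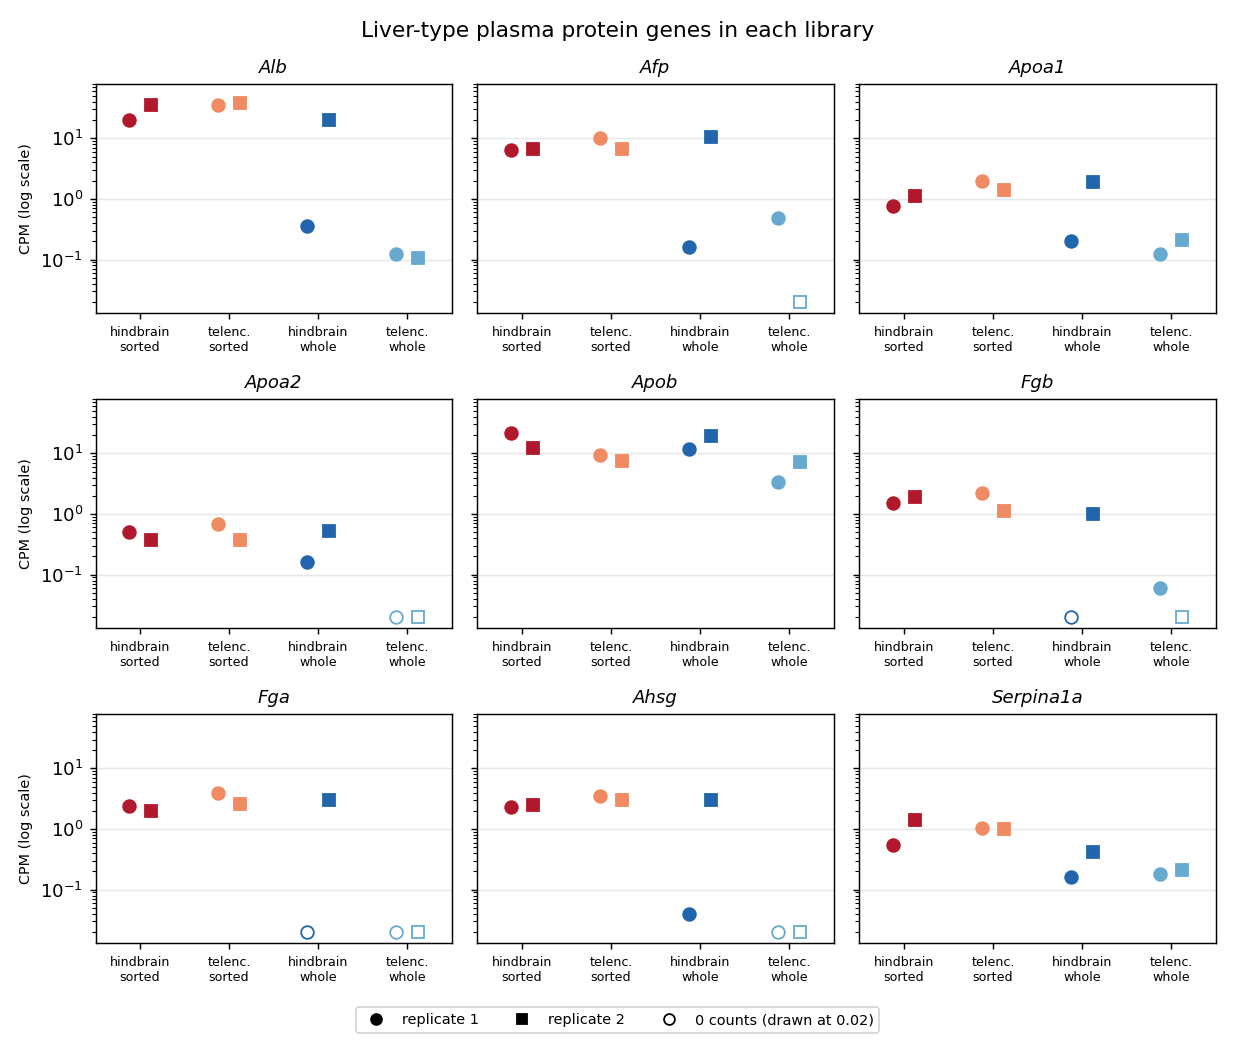
CPM (log scale) of each of the 9 genes in the 8 libraries, with 1 point per library, red and orange for sorted cells, blue for whole tissue, and open symbols for 0 counts. In every panel the 4 sorted libraries lie above both telencephalic whole libraries, narrowly for Apob (7.56 against 7.13 CPM), and hindbrain whole tissue replicate 2 lies far above replicate 1 for Alb, Afp, Fga and Ahsg.

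Among the secreted clotting and mineral-binding proteins, Fga had 65 and 54 counts in hindbrain sorted cells and 103 and 42 counts in telencephalic sorted cells, against 0 and 63 counts in hindbrain whole tissue and 0 in both telencephalic whole libraries. Fgb had 42 and 52 counts in hindbrain sorted cells and 58 and 18 counts in telencephalic sorted cells, against 0 and 21 counts in hindbrain whole tissue and 1 and 0 counts in telencephalic whole tissue. Ahsg had 64 and 68 counts in hindbrain sorted cells and 93 and 49 counts in telencephalic sorted cells, against 1 and 63 counts in hindbrain whole tissue and 0 in both telencephalic whole libraries. These genes shared one order: 5 libraries with signal, the 4 sorted ones and hindbrain whole tissue replicate 2, and 3 libraries at 0 or 1 count. A count of 0 in telencephalic whole tissue allows up to 0.183 CPM in replicate 1 and 0.314 CPM in replicate 2, the level of 3 counts.

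The apolipoproteins were split. Apoa1 had 21 and 31 counts in hindbrain sorted cells and 53 and 23 counts in telencephalic sorted cells, against 5 and 40 counts in hindbrain whole tissue and 2 and 2 counts in telencephalic whole tissue. Apoa2 had 14 and 10 counts in hindbrain sorted cells and 18 and 6 counts in telencephalic sorted cells, against 4 and 11 counts in hindbrain whole tissue and 0 in both telencephalic whole libraries. Unlike Alb, but like Afp, Fga and Ahsg, both were higher in hindbrain whole tissue replicate 2 than in either hindbrain sorted library. Apoa1 had 1.89 CPM there against 0.764 and 1.14 CPM, and Apoa2 0.519 against 0.509 and 0.367 CPM. Both kept the split seen for Alb, at counts low enough that replicates overlap between neighbouring groups. All sorted libraries and hindbrain whole tissue replicate 2 lay above hindbrain whole tissue replicate 1 and telencephalic whole tissue. Apob did not: it had 607 and 332 counts in hindbrain sorted cells and 248 and 122 counts in telencephalic sorted cells, against 297 and 413 counts in hindbrain whole tissue and 56 and 68 counts in telencephalic whole tissue. Its level was 3.42 and 7.13 CPM in telencephalic whole tissue, where Alb was near 0, and hindbrain whole tissue replicate 1 had 11.97 CPM of Apob beside 0.363 CPM of Alb.

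Serpina1a had 15 and 38 counts in hindbrain sorted cells and 28 and 16 counts in telencephalic sorted cells, against 4 and 9 counts in hindbrain whole tissue and 3 and 2 counts in telencephalic whole tissue. It lies between Serpina1d and Serpina1c, near-identical copies among which reads can be split or lost, so its own level is uncertain. Its copy Serpina1b, which is not one of the 9, had 17 and 36 counts in hindbrain sorted cells and 96 and 56 counts in telencephalic sorted cells, against 0 and 2 counts in hindbrain whole tissue and 2 and 0 counts in telencephalic whole tissue. Unlike Alb, Serpina1b was near 0 in hindbrain whole tissue replicate 2 as well.

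Levels of the genes relative to one another were compared per length, as CPM per kilobase of exon in the GENCODE M21 annotation, averaged over the 4 sorted libraries. Alb was highest at 16.0, with single libraries between 10.03 and 18.9. Afp followed at 3.57 (3.07 to 4.86), then Ahsg at 1.67 (1.37 to 2.06) and Apoa1 at 1.29 (0.738 to 1.94). Apob at 0.918, Fga at 0.901, Apoa2 at 0.898, Serpina1a at 0.631 and Fgb at 0.443 came last. Apart from the steps from Alb to Afp and from Afp to Ahsg, the ranges of neighbours in this order overlapped. On the same per-length scale Alb had 9.91 in hindbrain whole tissue replicate 2 and 0.178 in replicate 1.

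Sorted cells and whole tissue were set side by side in each region, as ratios of summed counts scaled by effective library size. In telencephalic plexus Alb was 316-fold higher in sorted cells (95% counting interval 108 to 1530, from 1558 counts in sorted cells and 3 in whole tissue). Fga was at least 29.4-fold higher, Ahsg at least 28.8-fold and Apoa2 at least 4.87-fold, each against a floor of 3 counts over the 2 whole libraries. Fgb was 46.2-fold higher (8.05 to 1850, from 76 counts in sorted cells and 1 in whole tissue), Afp 28.2-fold (14.2 to 65.8), Apoa1 11.6-fold (4.33 to 43.5), Serpina1a 5.35-fold (2.13 to 17.3) and Apob 1.81-fold (1.48 to 2.24). Because these are bulk samples, a larger share of expressing cells and more RNA per cell cannot be told apart.

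In hindbrain plexus the same ratio depended on one library. With both whole libraries Alb was 2.97-fold higher in sorted cells (2.67 to 3.31), Fgb 3.76-fold, Serpina1a 3.42-fold, Ahsg 1.73-fold, Fga 1.59-fold, Apoa2 1.34-fold, Afp 1.31-fold, Apob 1.11-fold and Apoa1 0.971-fold. Against hindbrain whole tissue replicate 1 alone, Alb was 77.6-fold higher in sorted cells (40.8 to 170), Afp 40-fold (15.5 to 148), Ahsg 59.8-fold (10.5 to 2380), Fga at least 18.0-fold, Fgb at least 14.2-fold, Serpina1a 6.0-fold, Apoa1 4.71-fold, Apoa2 2.72-fold (0.934 to 10.8) and Apob 1.43-fold (1.26 to 1.64).

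The 2 libraries of hindbrain whole tissue differed from each other in these genes. Replicate 2 had 55.5 times the Alb level of replicate 1 (29.0 to 122), 65.0 times the Afp level (25.0 to 241), 73.8 times the Ahsg level (12.8 to 2960, against 1 count), at least 24.6 times the Fga level, 9.37 times the Apoa1 level (3.7 to 30.4) and 1.63 times the Apob level (1.4 to 1.9). Of 15698 genes, 27 were over 4-fold higher in replicate 2, which is 0.172%, and 6 of the 9 genes were among them; the fold of 4 was chosen after these counts had been seen. By log2 difference Alb came 1st, Afp 2nd, Fga 3rd, Ahsg 5th, Fgb 6th and Apoa1 11th. The 4th was Car3, a carbonic anhydrase of muscle, fat and liver, with 132 counts in replicate 2 and 3 in replicate 1. Also among the first 20 were the liver genes Fgg, Kng1, Plg, Cps1, Pzp, Fabp1 and Proc.

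**Figure D2:**
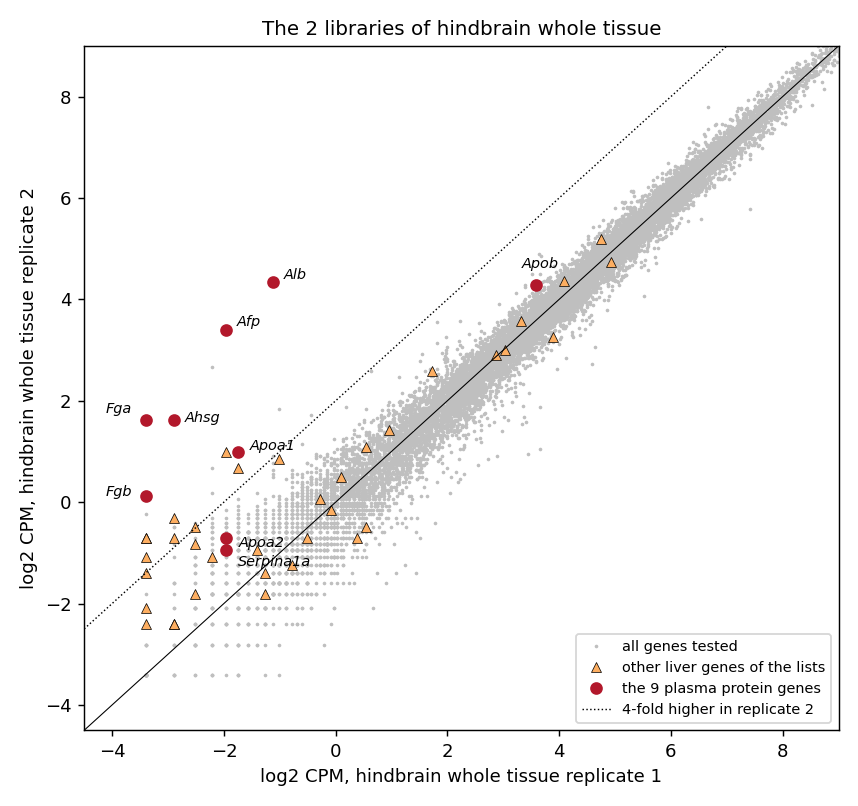
Log2 CPM of 15698 genes in hindbrain whole tissue, replicate 2 on the vertical axis and replicate 1 on the horizontal axis, with the 9 genes as red circles and other listed liver genes as orange triangles. Most genes lie near the diagonal, while Alb (427 counts in replicate 2, 9 in replicate 1), Afp (222 and 4), Fga, Ahsg, Fgb and Apoa1 lie above the dotted line of 4-fold.

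Replicate 2 of telencephalic whole tissue comes from the same brain as that library, per the design text, and had 1 count of Alb and 0 of Afp, Fga, Fgb and Ahsg. In the other 3 groups none of the 9 genes was over 4-fold higher in replicate 2. Of all genes, 1.33% were in hindbrain sorted cells, 0.663% in telencephalic sorted cells and 0.274% in telencephalic whole tissue, so 0 of 9 was likely. Afp was over 4-fold lower in replicate 2 of telencephalic whole tissue, as were 44 of 15698 genes. No gene of the marker lists for red cells, macrophages, neutrophils, endothelium, mesenchyme or choroid epithelium was over 4-fold higher in replicate 2 of hindbrain whole tissue. Only 0.172% of all genes were, so none was likely in lists this short, and their absence there tells little about those cells. Summed levels in hindbrain whole tissue were 62.4 to 67.9 CPM for 11 erythroid genes, 233 to 234 CPM for 14 macrophage genes and 605 to 649 CPM for 9 endothelial genes, while the 8 genes other than Apob summed to 1.09 and 40.4 CPM in those same libraries. The erythroid list is a poor measure here, since 4 of its 11 genes, among them the adult globins Hba-a1 and Hbb-b1, are listed at 0 in every library.

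Proportions between the genes were compared in the 5 libraries with over 400 Alb counts. Per 100 Alb counts, Afp had 31.0 (26.0 to 36.8) and 18.3 (15.5 to 21.4) in hindbrain sorted cells, 28.3 (24.6 to 32.5) and 17.1 (13.8 to 21.0) in telencephalic sorted cells and 52.0 (44.0 to 61.3) in hindbrain whole tissue replicate 2. In both regions the sorted brain numbered 1 had the higher share, and the 95% counting intervals of replicates 1 and 2 did not overlap. The 2 regions of each sorted brain had overlapping intervals, and the hindbrain whole library lay above all of them. Across genes, replicates scattered far more than counting error. Chi-square per degree of freedom was 61.1 between hindbrain sorted and 15.8 between telencephalic sorted replicates, where counting error alone gives about 1. Intervals that do not overlap therefore do not show a difference between brains.

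Fga per 100 Alb counts was 11.6 and 5.51 in hindbrain sorted cells, 10.99 and 6.76 in telencephalic sorted cells and 14.8 in hindbrain whole tissue replicate 2. Ahsg was 11.4 and 6.94 in hindbrain sorted cells, 9.93 and 7.89 in telencephalic sorted cells and 14.8 in hindbrain whole tissue replicate 2. Fgb ranged from 2.90 to 7.49, Apoa1 from 3.16 to 9.37, Apoa2 from 0.966 to 2.58 and Serpina1a from 2.11 to 3.88 over the 5 libraries. Alb itself was at 20.2 to 38.5 CPM in those libraries. Apob was 108 and 33.9 per 100 Alb counts in hindbrain sorted cells, 26.5 and 19.7 in telencephalic sorted cells and 96.7 in hindbrain whole tissue replicate 2, and in the libraries almost without Alb it was 3300 (hindbrain whole tissue replicate 1), 2800 and 6800 (telencephalic whole tissue).

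**Figure D3:**
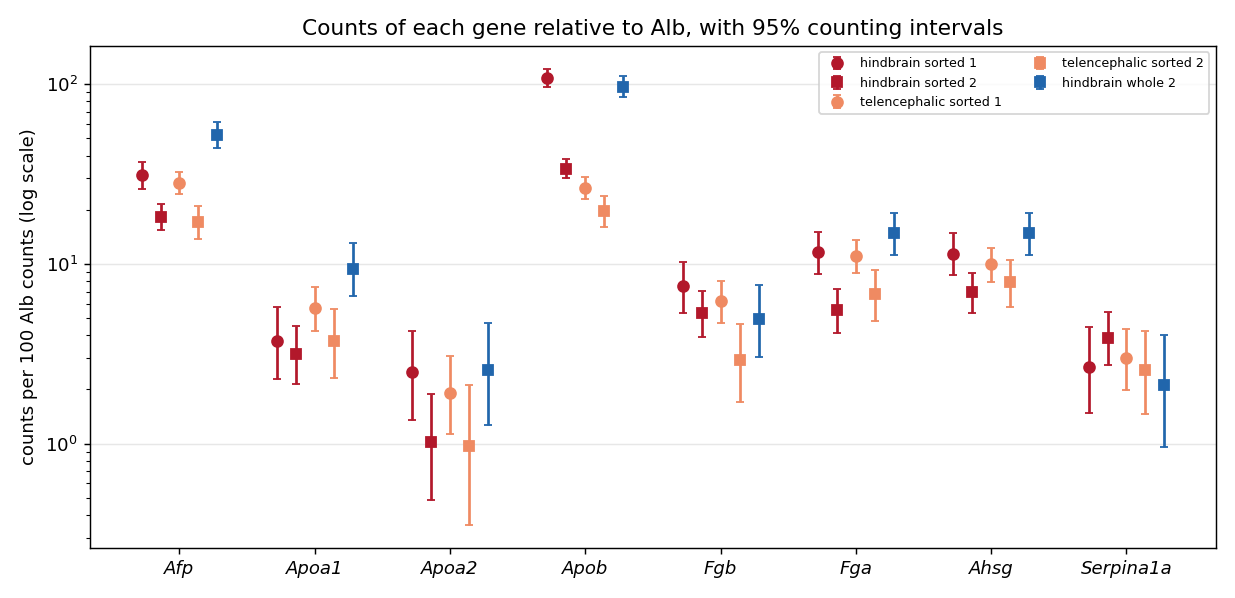
Counts of each gene per 100 Alb counts (log scale) in the 4 sorted libraries and hindbrain whole tissue replicate 2, with 95% counting intervals as bars; the other 3 libraries had at most 9 Alb counts and are not drawn. Afp ranges from 17.1 to 52.0, and Apob from 19.7 to 108.

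Other liver transcripts did not all keep these proportions. Fgg, the third fibrinogen chain, had 10.3 and 6.02 per 100 Alb counts in hindbrain sorted cells, 11.4 and 5.31 in telencephalic sorted cells and 9.37 in hindbrain whole tissue replicate 2. Serpina1b had 3.03 and 3.67 in hindbrain sorted cells, 10.3 and 9.02 in telencephalic sorted cells and 0.468 in hindbrain whole tissue replicate 2. Gc, the vitamin D-binding protein, had 4.10 and 2.55 in hindbrain sorted cells, 4.06 and 3.70 in telencephalic sorted cells and 0.703 in hindbrain whole tissue replicate 2.

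Likeness to Alb was measured over the 8 libraries as the root mean square difference of log2 CPM after each gene was centred on its own mean, among 15698 genes. The nearest was Ahsg at 1.01, then Fga at 1.04 and Afp at 1.17. Of the 8 nearest genes with a name other than a provisional one, Fgg (1.39), Fgb (1.53), Fabp1 (1.60), Lynx1 (1.61) and Uox (1.70) were the others. Fabp1 encodes the liver fatty acid-binding protein and Uox the urate oxidase of liver peroxisomes. Apoa1 ranked 33rd, Apoa2 50th, Serpina1a 90th and Apob 627th. These ranks used a prior count of 2. With a prior count of 0.5 Ahsg and Fga still ranked 1st and 2nd, Fabp1 3rd, Uox 4th, Afp 9th and Lynx1 15th. Apoa2 then ranked 19th, Apoa1 40th, Serpina1a 91st and Apob 619th. The points share depth and preparation, and genes with low counts are pulled toward small profiles, so the ranks describe these libraries only.

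One gene of the nearest 8 is not a liver gene. Lynx1, a modulator of nicotinic acetylcholine receptors, had 80.4 and 110 CPM in hindbrain sorted cells and 98.6 and 103 CPM in telencephalic sorted cells, against 6.77 and 7.74 CPM in hindbrain whole tissue and 2.51 and 2.20 CPM in telencephalic whole tissue. Its hindbrain whole libraries were alike, unlike those of Alb. Without hindbrain whole tissue replicate 2, a choice made after seeing the data, Lynx1 ranked 5th in likeness to Alb and Ahsg 6th. Fga then ranked 8th, Afp 11th, Fabp1 21st, Fgb 23rd and Apob 1151st. The genes ranked ahead of Lynx1 were then in none of the gene lists. The places of Ahsg, Fga and Afp as the nearest genes to Alb thus depended on that library.

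**Figure D4:**
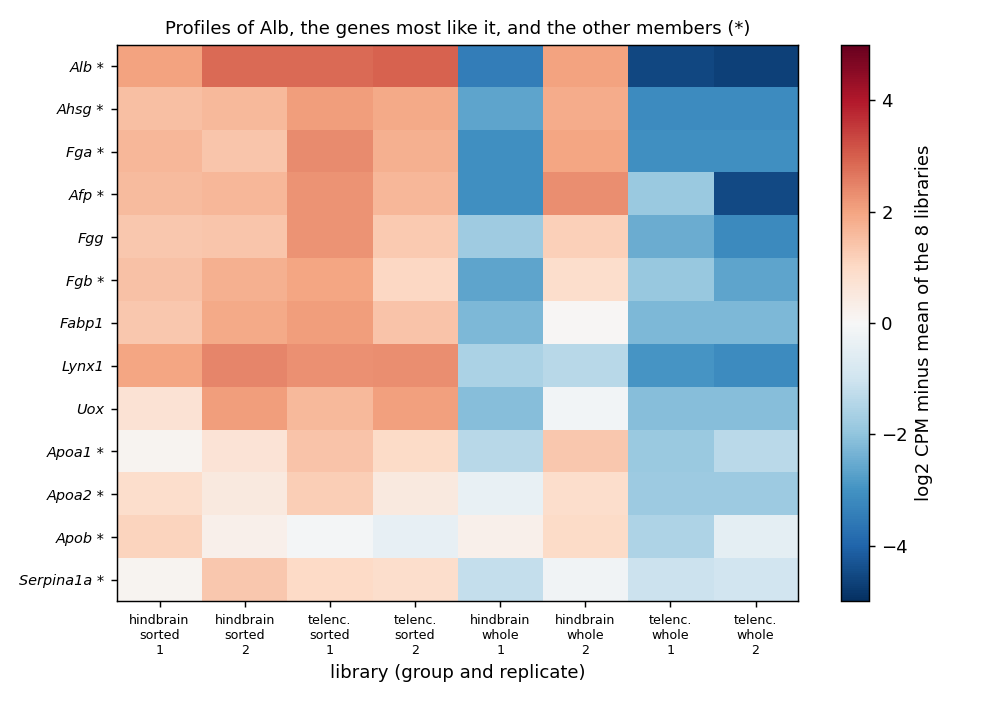
Log2 CPM minus the mean of the 8 libraries (colour) for Alb, the 8 genes nearest to it and the other members, marked by asterisks, with libraries as columns. Hindbrain whole tissue replicate 2 is high in the rows of Ahsg, Fga, Afp and Fgg and low in the row of Lynx1; Apob, ranked 627th, shows a flatter row.

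Region was tested within each preparation. In whole tissue 5.79% of all genes were called by edgeR's quasi-likelihood test at a Benjamini-Hochberg adjusted p of 0.05. An unadjusted edgeR p under 0.05 was held by 2583 of all 15698 genes. Of the 9 genes 1 was called, with 7 at an unadjusted p under 0.05 and 2 called by DESeq2. That gene was Apob, which averaged 15.7 ± 5.32 CPM in hindbrain and 5.27 ± 2.62 CPM in telencephalic whole tissue (SD, n = 2 each), a log2 difference of 1.63 ± 0.37 (SE) with an edgeR adjusted p of 0.0208. The Apob groups did not overlap. The call rested on 2 libraries: without hindbrain whole tissue replicate 2 the log2 difference was 1.23 (edgeR adjusted p = 0.168), and without telencephalic whole tissue replicate 1 it was 1.14 (edgeR adjusted p = 0.318).

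Alb averaged 10.3 ± 13.99 CPM in hindbrain and 0.114 ± 0.0124 CPM in telencephalic whole tissue (SD, n = 2 each), a log2 difference of 6.38 ± 1.77 that missed the threshold with an edgeR adjusted p of 0.0564. The SD exceeded the mean in hindbrain. With the brain as a block the Alb difference was 5.91 (edgeR adjusted p = 9.33e-05), and with DESeq2 the adjusted p was 0.00472. Hindbrain against telencephalic counts of Alb were 9 against 2 in replicate 1 and 427 against 1 in replicate 2. The block fit thus does not show a difference of that size in both brains. Without hindbrain whole tissue replicate 2 the log2 difference was 1.60, and without replicate 1 it was 7.37. Each of these fits left 1 library of hindbrain whole tissue, so neither measures the spread between replicates there. Leaving out a hindbrain sorted library, which is no part of this comparison but shares its estimate of spread, gave an edgeR adjusted p of 0.0426 or 0.0399 for Alb. The block also brought Fga (edgeR adjusted p = 0.00534) and Ahsg (edgeR adjusted p = 0.00457) past the threshold, and both were at 0 in the telencephalic libraries and at 0 or 1 count in hindbrain replicate 1. Afp differed by 4.10 ± 1.37 (edgeR adjusted p = 0.122), Apoa1 by 2.67 ± 1.05 (0.205) and Serpina1a by 0.55 ± 0.93 (0.854) on the log2 scale. The median log2 difference of the 9 genes was 4.10 as fitted and 3.46 with the 3 genes absent from telencephalic tissue at their bound, against 0.005 for all genes tested.

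In sorted cells 15.2% of all genes were called between the regions. An unadjusted edgeR p under 0.05 was held by 4440 of all 15698 genes. None of the 9 was called by edgeR, with 1 at an unadjusted p under 0.05 and 1 called by DESeq2. Alb averaged 28.2 ± 10.99 CPM in hindbrain and 37.0 ± 2.18 CPM in telencephalic sorted cells (SD, n = 2 each), a log2 difference of -0.39 ± 0.77 (edgeR adjusted p = 0.801). Replicates differed by 0.82 on the log2 scale in hindbrain and 0.12 in telencephalic sorted cells. The fit uses 1 spread per gene over all 4 groups. The SE thus also takes in the 5.47 between hindbrain whole replicates, which are outside this comparison. Afp differed by -0.37 ± 0.87 (edgeR adjusted p = 0.837) and Apoa1 by -0.86 ± 0.73 (edgeR adjusted p = 0.495). Apob, at 17.1 ± 7.0 CPM in hindbrain and 8.47 ± 1.28 CPM in telencephalic sorted cells (SD, n = 2 each), differed by 1.01 ± 0.34 with an edgeR adjusted p of 0.0657. With the brain as a block the Apob difference was 0.98 (edgeR adjusted p = 0.00377), and DESeq2 gave an adjusted p of 0.0234. Without hindbrain sorted replicate 2, which left a single library of hindbrain sorted cells, the Apob difference was 1.37. The median of the 9 genes was -0.37, against -0.001 for all genes tested.

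Whether the region difference itself depended on preparation was tested as an interaction. Over all genes 1.34% were called, and 1481 of 15698 had an unadjusted edgeR p under 0.05. None of the 9 was called by edgeR or by DESeq2, and 6 had an unadjusted p under 0.05. For Alb the region difference in sorted cells minus that in whole tissue was -6.77 ± 2.02 (edgeR adjusted p = 0.197), and for Apob it was -0.62 ± 0.50 (edgeR adjusted p = 0.801). With the brain as a block Alb (-6.36, edgeR adjusted p = 0.000393), Fga (0.0115) and Ahsg (0.0115) were called. The whole tissue part of these values again came mainly from replicate 2. Without hindbrain whole tissue replicate 2 the Alb value was -1.99, and without replicate 1 it was -7.76, each with a single library left in that group.

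The other liver plasma protein genes, 44 of 45 listed symbols present and 22 tested, moved less evenly. In telencephalic plexus, where edgeR called 22.4% of all genes at an adjusted p of 0.05, 7 were called higher in sorted cells and 2 lower, with a median log2 difference of 2.00 with absent genes at their bound, against 0.015 for all genes. The 7 were Fgg, Serpina1b, Hpx, Apoc1, Kng1, Gc and C3; Vtn and Itih2, the genes of vitronectin and of an inter-alpha-trypsin inhibitor heavy chain, fell. In hindbrain plexus, where 22.1% of all genes were called, 3 were higher in sorted cells (Serpina1b, Hpx and Gc) and 4 lower (Itih2, Vtn, Rbp4 and C3). The filter kept some of the tested genes through their sorted libraries alone. Gc, for example, had 48 and 61 summed counts in hindbrain and telencephalic sorted cells, against 3 and 0 in whole tissue. The calls and the median of the tested genes therefore lean toward sorted cells in advance and serve as description. With each of the 8 libraries left out in turn, only Serpina1b of the 9 telencephalic calls and Itih2 and Vtn of the 7 hindbrain calls were called every time. Vtn averaged 3.11 ± 0.123 CPM in hindbrain sorted cells and 12.1 ± 3.7 CPM in hindbrain whole tissue (SD, n = 2 each), a log2 difference of -1.96 ± 0.36 (edgeR adjusted p = 0.00262).

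Between regions in whole tissue, where 5.79% of all genes were called, 3 of these 22 genes were, all higher in hindbrain: C3, Rbp4 and Itih2. C3, the central complement protein, had 3.22 and 5.90 CPM in hindbrain whole tissue and 0.367 and 0.524 CPM in telencephalic whole tissue, a log2 difference of 3.38 ± 0.50 (edgeR adjusted p = 0.00121). The C3 call in whole tissue was made without any 1 library. Rbp4, the retinol carrier, differed by 2.32 ± 0.39 in whole tissue (edgeR adjusted p = 0.00307, and 0.0761 or 0.0511 without one or the other telencephalic whole library) and by 1.79 ± 0.39 in sorted cells (edgeR adjusted p = 0.0077). Both were high in hindbrain whole tissue replicate 1 as well as 2, unlike Alb. In sorted cells, where 15.2% of all genes were called, 1 of the 22 was called higher in hindbrain, Rbp4, and 1 lower, Fetub. Fetub, the neighbour of Ahsg, had 1 and 1 counts in hindbrain and 21 and 11 counts in telencephalic sorted cells (edgeR adjusted p = 0.0213; 0.0611 by DESeq2 and 0.0503 to 0.147 by edgeR when any 1 of 5 libraries was left out).

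Genes for liver enzymes, receptors and regulators were 35 listed, all present, and 15 tested. In sorted against whole telencephalic plexus, where 22.4% of all genes were called, 6 were called higher (among them Cps1, Arg1, Slc10a1, Uox and Fabp1) and 1 lower (Nr1h4). The median was 1.28 against 0.015 for all genes. In hindbrain plexus, where 22.1% of all genes were called, 4 were called higher in sorted cells (among them Slc10a1, Uox and Fabp1). The median was 1.18 against 0.009. The filter kept genes such as Fabp1 through their sorted libraries alone. Fabp1 had 72 and 66 summed counts in hindbrain and telencephalic sorted cells, against 8 and 0 in whole tissue. The calls and medians of this list thus lean toward sorted cells in advance. Of these calls only that of Nr1h4 was made with every library left out in turn. Fabp1 had 1.05 and 1.58 CPM in hindbrain sorted cells and 1.81 and 1.12 CPM in telencephalic sorted cells, against 0 and 0.378 CPM in hindbrain whole tissue and 0 in both telencephalic whole libraries. Bhmt, a homocysteine methyltransferase, and Ass1, of the urea cycle, were instead higher in hindbrain than in telencephalic plexus in both preparations, Bhmt by 1.19 ± 0.21 in whole tissue (edgeR adjusted p = 0.00471) and 0.96 ± 0.21 in sorted cells (edgeR adjusted p = 0.0081). Bhmt missed the threshold without telencephalic whole tissue replicate 1 (edgeR adjusted p = 0.0861) or 2 (0.0601), and in sorted cells without telencephalic replicate 1 (0.114); Ass1 likewise depended on single libraries.

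Hnf4a and Asgr1, of the same list, were at a few counts. Hnf4a, which encodes a nuclear receptor of hepatocytes, had 5 and 10 counts in hindbrain sorted cells and 12 and 5 counts in telencephalic sorted cells, against 1 and 2 counts in hindbrain whole tissue and 0 and 1 counts in telencephalic whole tissue. Asgr1, of the hepatocyte asialoglycoprotein receptor, had 1 and 1 counts in hindbrain sorted cells and 2 and 5 counts in telencephalic sorted cells, against 13 and 9 counts in hindbrain whole tissue and 2 and 0 counts in telencephalic whole tissue.

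**Figure D5:**
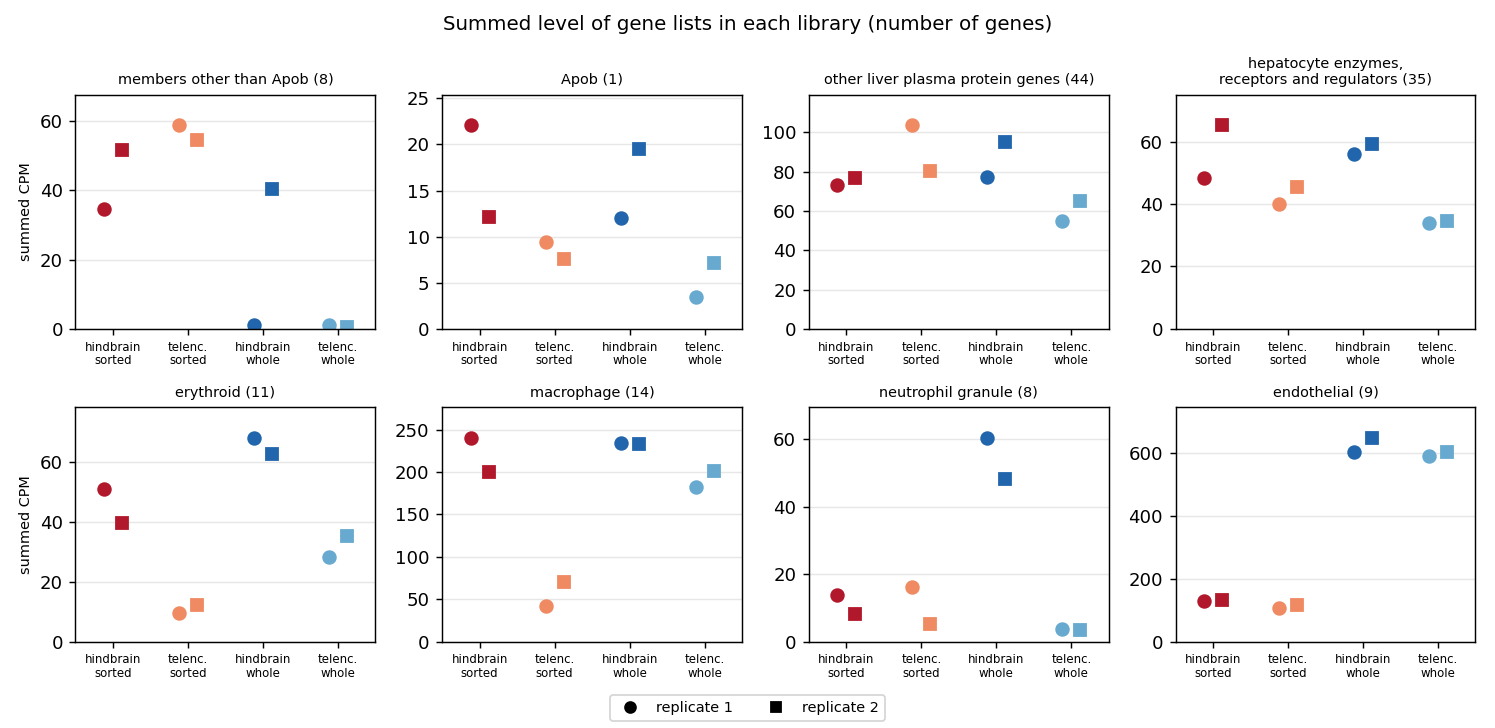
Summed CPM of 8 gene lists in each library, with 1 point per library, sorted cells left of whole tissue, and each panel on its own linear axis from 0. The 8 members other than Apob sum to 34.8 to 58.8 CPM in sorted cells, 40.4 CPM in hindbrain whole tissue replicate 2 and under 1.1 CPM in the other 3 libraries, an order that none of the marker lists drawn shows.

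The yolk sac and gut endoderm genes gave 12 of 13 listed symbols and 5 tested. In telencephalic sorted against whole plexus 5564 of all 15698 genes had an unadjusted edgeR p under 0.05. None was called in telencephalic sorted against whole plexus by edgeR or DESeq2, with 3 at an unadjusted p under 0.05, and 1, Mttp, was called higher in hindbrain sorted cells (edgeR adjusted p = 0.00493, and 0.0512 without hindbrain whole tissue replicate 2). By edgeR, 22.4% of all genes were called in telencephalic and 22.1% in hindbrain sorted against whole plexus. Mttp loads lipid onto apolipoprotein B. It averaged 24.4 ± 3.44 CPM in hindbrain sorted cells and 29.1 ± 1.76 CPM in telencephalic sorted cells, against 13.3 ± 1.56 CPM in hindbrain whole tissue and 21.2 ± 4.34 CPM in telencephalic whole tissue (SD, n = 2 each), and like Apob it was present in every library.

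Apolipoproteins outside the 9 were 14 listed, all present, and 8 tested; Apoc1 is on this list and on that of plasma proteins. Apoe and Clu were far above the liver set, at 635 and 1206 CPM in hindbrain sorted cells, 750 and 1944 CPM in telencephalic sorted cells, 497 and 688 CPM in hindbrain whole tissue and 705 and 1122 CPM in telencephalic whole tissue. Clu was called lower in hindbrain than in telencephalic plexus in both preparations, with log2 differences of -0.71 ± 0.11 in whole tissue (edgeR adjusted p = 0.00226) and -0.69 ± 0.11 in sorted cells (edgeR adjusted p = 0.00137).

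Receptors and handling genes for plasma proteins were 14, all tested. Lrp2, the megalin receptor that takes up albumin and apolipoproteins in kidney, averaged 66.8 ± 10.7 CPM in hindbrain sorted cells and 30.6 ± 0.218 CPM in hindbrain whole tissue, and 61.6 ± 5.86 CPM in telencephalic sorted cells and 39.2 ± 2.95 CPM in telencephalic whole tissue (SD, n = 2 each). It was called higher in sorted cells of both regions, with log2 differences of 1.12 ± 0.14 in hindbrain (edgeR adjusted p = 0.000184) and 0.66 ± 0.14 in telencephalic plexus (edgeR adjusted p = 0.00655; 0.0746 without telencephalic sorted replicate 1 and 0.0925 without telencephalic whole replicate 1). Scarb1, a receptor for high-density lipoprotein, was called lower in sorted cells of both regions, with log2 differences of -1.55 ± 0.14 in hindbrain (edgeR adjusted p = 1.21e-05) and -0.82 ± 0.14 in telencephalic plexus (edgeR adjusted p = 0.00131). Fcgrt, whose receptor recycles albumin and IgG, was higher in hindbrain than in telencephalic sorted cells by 1.24 ± 0.19 (edgeR adjusted p = 0.000706). In sorted against whole plexus, 5 of the 14 were called higher and 2 lower in telencephalic and 5 higher and 3 lower in hindbrain plexus. Of all genes 22.4% were called in telencephalic and 22.1% in hindbrain plexus.

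Markers of other cells moved between the same groups, and their part in these results was not tested. Macrophage genes summed to 200 to 240 CPM in hindbrain sorted cells and 41.9 to 70.4 CPM in telencephalic sorted cells, against 233 to 234 CPM in hindbrain whole tissue and 182 to 201 CPM in telencephalic whole tissue. Neutrophil granule genes, 8 of them, summed to 8.22 to 13.8 CPM in hindbrain sorted cells and 5.33 to 16.0 CPM in telencephalic sorted cells, against 48.1 to 60.4 CPM in hindbrain whole tissue and 3.46 to 3.67 CPM in telencephalic whole tissue. The hindbrain whole libraries thus had close macrophage, neutrophil and endothelial sums beside a 55.5-fold difference in Alb.

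Erythroid genes, 11 present, with the adult globins Hba-a1, Hba-a2, Hbb-b1 and Hbb-b2 listed at 0 in every library, summed to 39.5 to 50.8 CPM in hindbrain sorted cells and 9.45 to 12.03 CPM in telencephalic sorted cells, against 62.4 to 67.9 CPM in hindbrain whole tissue and 28.2 to 35.3 CPM in telencephalic whole tissue. The erythroid genes moved in opposite directions. Of the 7 tested, edgeR called 2 higher and 3 lower in hindbrain sorted cells than in whole tissue, where it called 22.1% of all genes. In telencephalic plexus it called 1 higher and 2 lower, and 22.4% of all genes. Hba-x, an embryonic alpha-type globin made by primitive red cells, stood at 35.2 and 21.1 CPM in hindbrain sorted cells and 1.70 and 1.36 CPM in telencephalic sorted cells, against 1.65 and 1.70 CPM in hindbrain whole tissue and 0.122 and 0.629 CPM in telencephalic whole tissue. Sorted cells thus exceeded whole tissue of their own region in every library, by a log2 difference of 4.07 ± 0.34 in hindbrain (edgeR adjusted p = 6.78e-06) and 2.28 ± 0.58 in telencephalic plexus (edgeR adjusted p = 0.0141; 0.0896 without telencephalic sorted replicate 1 and 0.228 without telencephalic whole replicate 1). Hbb-y, an embryonic beta-type globin, was at 5.75 and 6.31 CPM in hindbrain sorted cells and 0.491 and 0.124 CPM in telencephalic sorted cells, against 0.242 and 0.142 CPM in hindbrain whole tissue and 0.183 and 0 CPM in telencephalic whole tissue. It was called higher in sorted than in whole hindbrain plexus (log2 difference 4.91 ± 0.62, edgeR adjusted p = 0.000177) but not in telencephalic plexus (1.52 ± 0.95, edgeR adjusted p = 0.277). Alas2, the haem synthesis enzyme of red cells, was lower in sorted cells, with log2 differences of -2.45 ± 0.21 in hindbrain (edgeR adjusted p = 7.22e-06) and -1.83 ± 0.22 in telencephalic plexus (edgeR adjusted p = 7.77e-05). In likeness to Alb, Hba-x ranked 115 and Hbb-y 351 of 15698 genes.

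Mesenchymal genes, 10 of them and none at 0, summed to 1207 to 1566 CPM in hindbrain sorted cells and 725 to 746 CPM in telencephalic sorted cells, against 1519 to 1662 CPM in hindbrain whole tissue and 1132 to 1295 CPM in telencephalic whole tissue. Between regions in sorted cells edgeR called 8 of the 10 higher and 1 lower in hindbrain, against 15.2% of all genes called. In sorted against whole tissue it called 8 lower in telencephalic and 1 lower in hindbrain plexus. Of all genes it called 22.4% in telencephalic and 22.1% in hindbrain plexus. The part of the erythroid and mesenchymal genes in the results for the 9 genes was not tested.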

How the data were processed

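Each of 8 libraries of mouse choroid plexus had 1 column of whole-number read counts per gene symbol, deposited without normalization. Per the labels' protocols the cDNA was amplified (NuGEN Ovation V2) before TruSeq v2 paired-end sequencing, which marks no strand. The build mm9 and the tools TopHat2 2.0.4, Bowtie2 2.0.5, CASAVA 1.8.2 and HTSeq are listed, per the submitters' processing notes, along with DESeq 1. Which annotation, strand option and HTSeq release were used is not given in the sources used here.

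Counts were fitted over all 4 groups with edgeR 4.0.16 in R 4.3.3 (filterByExpr with a minimum count of 10 and total of 15, TMM factors, quasi-likelihood test, Benjamini-Hochberg adjustment over 15698 genes, threshold 0.05). The fit recovered changes set in simulated data, in genes with ample counts and with the same spread for every gene. That does not show how it behaves for genes with few counts or for replicates as uneven as those of Alb. DESeq2 1.42.0, other scalings, no filter and each library left out were alternatives. Log2 CPM for likeness used a prior count of 2. The numbers pair the regions because the design text says both came from the same brains; deviations of same-numbered libraries correlated at 0.193 in whole tissue and 0.145 in sorted cells. P-values rest on 2 libraries per group, and on a single library in the group that lost one when a library was left out. Ratio intervals are exact binomial at 95%.

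The 9 genes and 11 other lists (187 of 190 symbols found) were chosen with earlier results of these data known. Genes were named by a rule: all 9; of each other list the 4 with the highest mean CPM and up to 3 called per contrast; and the 8 nearest to Alb. Car3, Pzp, Proc, Plg, Hnf4a, Asgr1, Hpx, Arg1 and others outside it were named after their values were seen. Some genes of the lists are not reported here. Gene lengths are from another annotation than the counts.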

Additional observations from a re-analysis of the deposited data

Results flagged for a closer look

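C3 stood out because its difference between regions was not the same in sorted cells as in whole tissue, by edgeR's interaction test over all genes. The region difference in sorted cells minus that in whole tissue was -3.69 ± 0.64 on the log2 scale (edgeR adjusted p = 0.0116). C3 had 2.22 and 1.72 CPM in hindbrain sorted cells and 2.72 and 2.11 CPM in telencephalic sorted cells, against 3.22 and 5.90 CPM in hindbrain whole tissue and 0.367 and 0.524 CPM in telencephalic whole tissue. The adjusted p was 0.0625 without telencephalic sorted replicate 1, 0.0718 without hindbrain whole replicate 2, 0.132 without telencephalic whole replicate 1 and 0.0731 without telencephalic whole replicate 2, all by edgeR.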

How the results depend on the processing

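No called result changed direction under the alternatives run, in the lists whose single genes were checked. With the 4 libraries of a comparison fitted alone, 1587 genes were called between regions in whole tissue (909 in the fit over all groups), 1460 between regions in sorted cells (2383) and 2236 between preparations in hindbrain (3472); Alb was filtered out of that whole tissue fit. Of the 9 genes, between regions in whole tissue, where 1 was called, 2 were called on library totals, 5 with no filter, 2 by DESeq2 and 4 with the replicate block. In sorted cells, where 0 were called, each of these called 1. The numbers of all genes that these settings called between regions are not reported here. The counts therefore cannot be read as particular to the 9 genes. For the interaction, no filter called 441 genes and 4 of the 9, DESeq2 335 genes and the replicate block 337 genes and 3 of the 9, against 211 and 0. Leaving out 1 library gave 316 to 1341 genes and 0 to 7 of the 9 in whole tissue, 1051 to 3252 genes and 0 to 1 of the 9 in sorted cells, 58 to 473 genes and 0 to 4 of the 9 for the interaction, and 1519 to 4501 genes in telencephalic and 1691 to 3875 in hindbrain sorted against whole plexus. Each fit without 1 library left a single library in its group. The cause of these changes in the numbers of called genes was not tested. Of 69 calls in the lists of other liver plasma proteins, liver enzymes, yolk sac genes, apolipoproteins and receptors, 18 were made with every library left out in turn. Calls in the macrophage, neutrophil, endothelial, mesenchymal and choroid epithelial lists were not checked in this way. Library totals moved the median of all genes by 0.202 on the log2 scale between regions in sorted cells, 0.121 for the interaction, -0.319 in telencephalic and -0.198 in hindbrain sorted against whole plexus. Low counts limit the precision of Apoa2, Serpina1a, Fga, Fgb and Ahsg in whole tissue.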
